A study of Mus musculus with 6 samples.

Results

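The genes described here are 10 members of the NF-kB system: the subunit genes Nfkb1, Nfkb2 and Relb, the nuclear IkB genes Nfkbiz and Bcl3, the cytoplasmic inhibitor gene Nfkbia, the ubiquitin regulators Tnfaip3, Tnip1 and Birc3, and the ribonuclease gene Zc3h12a. They and the gene lists below were chosen by name, with earlier results of these data known. The shares over all genes set beside their counts are therefore descriptions. The probes of the 10 genes were found through the RefSeq transcript that the array files give for each probe. All 10 had at least 1 probe, all were well above background on all 6 arrays, and they were read from a test over 32451 genes and unnamed probes, of which 17516 were named genes.

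Lung RNA came from 6 male C57BL6 mice aged 10 weeks. Every mouse was fasted for 16 h and then given lipopolysaccharide, the bacterial outer membrane component that causes endotoxin shock, at 20 mg/kg into the peritoneum. At 3 h and 24 h after it, 3 mice received saline and 3 received recombinant antithrombin, the plasma inhibitor of thrombin, at 750 IU/kg, and lungs were taken at 30 h. Each mouse had its own one-colour array. Both groups carried endotoxin and no untreated mouse was analysed here, so each value sets antithrombin against saline within endotoxemia.

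NF-kB transcription factors are dimers of Rel family proteins. In resting cells IkB proteins, of which Nfkbia encodes the best known, hold them in the cytoplasm. Endotoxin, through TLR4, and cytokines such as TNF activate the IkB kinases, IkB is degraded, and the dimers enter the nucleus. This is the canonical arm. In the noncanonical arm the kinase NIK, encoded by Map3k14, drives processing of the Nfkb2 product, which partners RelB. NF-kB induces many of its own subunits and inhibitors, so their transcripts form a feedback circuit, and in the lung they respond to endotoxin in endothelium, epithelium and myeloid cells.

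The promoters are shown first because the 10 genes include known targets of the factor they encode or restrain. RefSeq promoter windows of assembly GRCm38.p6, from 250 bases before to 50 after each annotated start, were matched by symbol for 7 of the 10 genes: Nfkb2, Bcl3, Nfkbia, Tnfaip3, Tnip1, Birc3 and Zc3h12a. They were searched on both strands for the NF-kB consensus, the kappaB motif of 10 bases, and matches that overlapped on the 2 strands were kept. The 150 bases from 130 before the start are given for 6 of them, 5 with a match and Birc3 for contrast, each 5′ to 3′ in the direction of the gene, with the matched bases in capitals.
Nfkb2 (chr19:46304607-46304756, + strand): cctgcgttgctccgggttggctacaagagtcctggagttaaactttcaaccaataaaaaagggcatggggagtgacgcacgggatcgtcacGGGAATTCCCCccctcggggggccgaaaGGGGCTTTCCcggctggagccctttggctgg
Bcl3 (chr7:19822736-19822885, - strand): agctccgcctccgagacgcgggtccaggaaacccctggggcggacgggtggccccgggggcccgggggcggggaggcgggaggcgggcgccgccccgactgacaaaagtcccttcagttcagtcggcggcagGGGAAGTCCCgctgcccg
Nfkbia (chr12:55492628-55492777, - strand): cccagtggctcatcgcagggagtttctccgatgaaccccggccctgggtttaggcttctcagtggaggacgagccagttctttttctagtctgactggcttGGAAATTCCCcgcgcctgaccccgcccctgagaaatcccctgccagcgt
Tnfaip3 (chr10:19015391-19015540, - strand): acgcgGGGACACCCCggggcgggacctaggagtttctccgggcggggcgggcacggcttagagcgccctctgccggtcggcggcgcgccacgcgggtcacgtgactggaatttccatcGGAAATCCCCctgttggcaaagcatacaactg
Tnip1 (chr11:54962921-54963070, - strand): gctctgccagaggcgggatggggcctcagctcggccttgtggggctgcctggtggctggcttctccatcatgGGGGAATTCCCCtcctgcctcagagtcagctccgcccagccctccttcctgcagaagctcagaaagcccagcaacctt
Birc3 (chr9:7873151-7873300, - strand): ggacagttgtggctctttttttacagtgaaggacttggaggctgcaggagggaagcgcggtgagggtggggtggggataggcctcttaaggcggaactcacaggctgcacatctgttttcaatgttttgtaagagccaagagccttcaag
The match of Nfkbia begins 29 bases before its start, and that of Bcl3 begins 2 bases past its start. Nfkb2 has a run of overlapping matches and a further match, GGGGCTTTCC, in the window shown, and its other listed starts have matches too. In Tnip1 the run GGGGAATTCCCC is its own reverse complement. Tnfaip3 has matches 125 and 12 bases before its start. Birc3 and Zc3h12a have no match to these letters in the windows searched. Matches lay in the windows of 5 of the 7 genes, or 7 of their 10 windows, against 4.51% of the 32851 windows of all genes. A match is a description of the letters, and binding was not measured.

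Levels below are log2 signals relative to the 75th percentile of each array, so a difference of 1 is 2-fold, and levels of different genes are not compared because their probes differ. In whole lung RNA a smaller number of cells of a type and less RNA per cell cannot be told apart. None of the 10 genes passed the test over all genes (limma, Benjamini-Hochberg adjusted p between 0.171 and 0.495), where 2 of 32451, or 0.00616%, passed, 0.00308% as higher and 0.00308% as lower. At an unadjusted p under 0.05 (limma), 4 members were higher after antithrombin, Bcl3, Nfkb2, Nfkbiz and Relb, and 0 were lower, against 21.6% of all genes tested, 8.73% as higher and 12.9% as lower. The difference was above 0 for 8 of the 10 members and for 43.0% of all genes tested. The 3 antithrombin values lay above all 3 saline values for 7 members and below them for 2, Nfkbia and Birc3, where 28.8% of all genes tested were apart, 10.7% above and 18.1% below. The median log2 difference, antithrombin minus saline, was 0.29 over the 10 members and -0.05 over all genes tested.

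**Figure D1:**
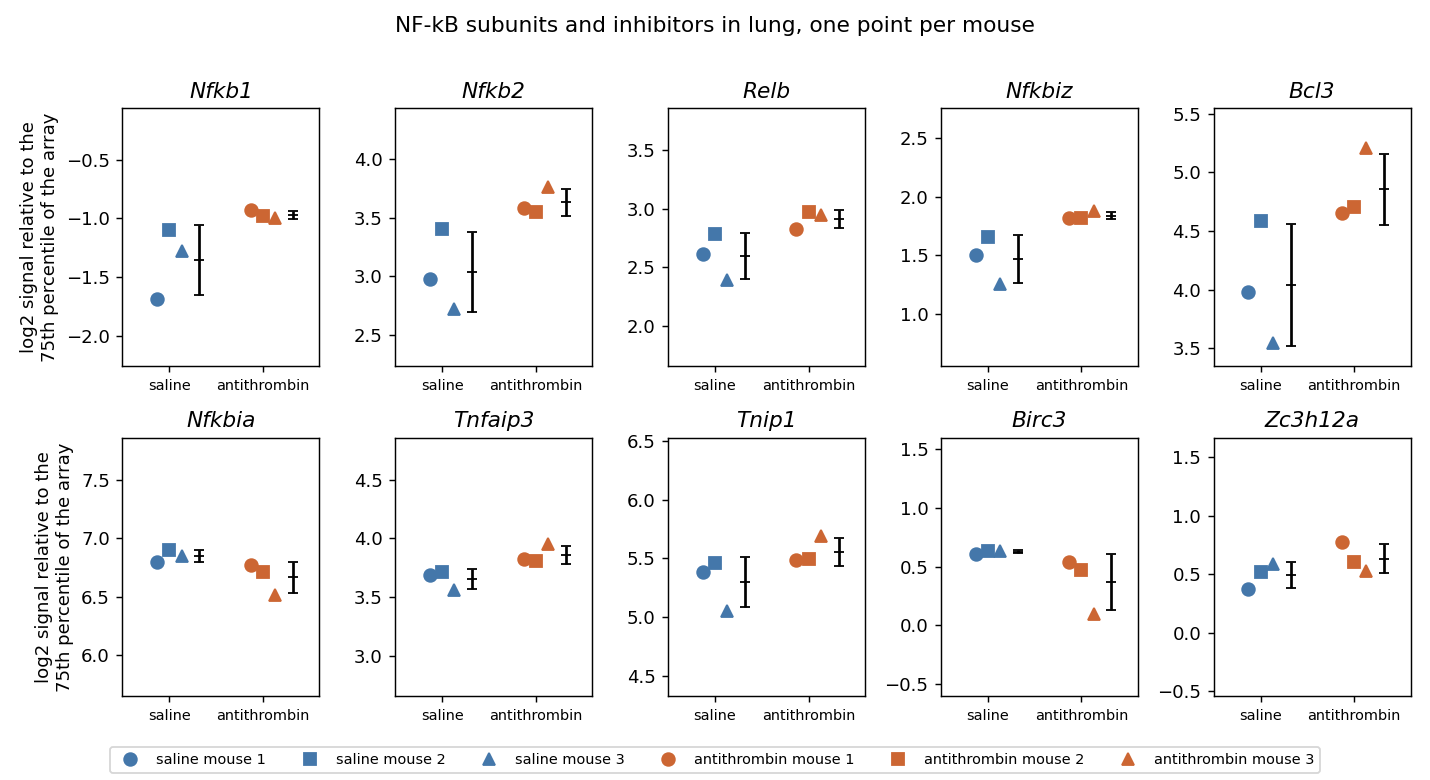
Log2 signal relative to the 75th percentile of the array (vertical axes, each spanning the same range) for each of the 10 genes, in saline (blue) and antithrombin (orange) mice; each symbol is 1 mouse, and the black bar gives the mean and SD of 3 mice. The groups are apart for 9 genes and overlap for Zc3h12a, and saline mouse 2 is the highest saline mouse for 8 genes.

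Among the subunit genes, Nfkb2, which encodes the precursor of the noncanonical subunit, stood at 2.98, 3.41 and 2.73 in saline mice 1, 2 and 3 and at 3.58, 3.55 and 3.76 in antithrombin mice 1, 2 and 3. The groups did not overlap, and saline mouse 2 lay nearer to the antithrombin mice than to the other saline mice. The antithrombin mean of 3.63 ± 0.11 (SD, n = 3) was 1.51-fold the saline mean of 3.04 ± 0.34 (SD, n = 3), with a 95% interval of 1.11 to 2.05 (limma, adjusted p = 0.171). A second Nfkb2 probe gave a log2 difference of 0.46 against 0.59 for the probe used.

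Relb encodes the partner of the processed Nfkb2 product. It was 2.61, 2.78 and 2.39 in the saline mice and 2.83, 2.97 and 2.95 in the antithrombin mice. All antithrombin values were higher than all saline values, though saline mouse 2 was only 0.04 below the lowest of them. The log2 difference was 0.32 (SE 0.13, limma adjusted p = 0.228), and a second Relb probe, designed on another transcript, gave 0.34.

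Nfkb1 encodes the precursor of the most common canonical subunit. It read -1.69, -1.10 and -1.28 in the saline mice and -0.93, -0.98 and -0.998 in the antithrombin mice. The antithrombin values were close together (SD 0.04) and the saline values were spread (SD 0.30), with saline mouse 1 the lowest. The means were 0.39 apart (SE 0.16, limma adjusted p = 0.236), and 0.22 apart without saline mouse 1.

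Bcl3 and Nfkbiz encode nuclear IkB proteins, which bind subunit dimers on DNA and act as cofactors at selected targets. Bcl3 had the largest difference of the 10 genes with all 6 arrays. It stood at 3.98, 4.58 and 3.55 in the saline mice and 4.66, 4.70 and 5.20 in the antithrombin mice. Both groups were spread, antithrombin mouse 3 was the highest, and saline mouse 2 lay 0.07 below the lowest antithrombin mouse. The means were 4.85 ± 0.30 (SD, n = 3) after antithrombin and 4.04 ± 0.52 (SD, n = 3) after saline, a 1.76-fold difference with a 95% interval of 1.10 to 2.82 (limma, adjusted p = 0.187).

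Nfkbiz encodes the IkB-zeta protein, needed for a subset of endotoxin-induced cytokine genes. Its values were 1.50, 1.65 and 1.25 in the saline mice and 1.82, 1.82 and 1.87 in the antithrombin mice. The groups were 0.16 apart on the log2 scale, with an antithrombin SD of 0.03 against a saline SD of 0.20. The log2 difference was 0.37 (SE 0.13, limma adjusted p = 0.191), and a second Nfkbiz probe gave 0.40.

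Nfkbia, the cytoplasmic inhibitor and the fastest known feedback gene of the pathway, was lower after antithrombin, without passing the test. It was 6.80, 6.90 and 6.84 in the saline mice and 6.77, 6.71 and 6.52 in the antithrombin mice. The groups were only 0.02 apart, and they overlapped with quantile normalization and with median scaling. The log2 difference was -0.18 (SE 0.11, 95% interval -0.45 to 0.09, limma adjusted p = 0.375), and without antithrombin mouse 3 it was -0.10.

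Nfkbia is also induced by glucocorticoids, and the glucocorticoid receptor targets are given beside it for that reason. All 7 of that list had a negative log2 difference, with a median of -0.52, where 43.0% of all genes tested had a positive one. At an unadjusted p under 0.05 (limma) 3 of 7 were lower, against 12.9% of all genes tested, with 0 of 7 past the adjusted threshold. Ddit4 stood at -1.34 (SE 0.33), the phosphatase gene Dusp1 at -0.68 (SE 0.18), the kinase gene Sgk1 at -0.48 (SE 0.18) and the receptor chaperone gene Fkbp5 at -0.50 (SE 0.22), or -0.26 without antithrombin mouse 3. Antithrombin mouse 3 was the lowest of the 6 for each of these 4 genes, as it was for Nfkbia and also for Birc3. Whether the values of the glucocorticoid targets and of Nfkbia are linked was not tested.

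Tnfaip3 encodes a deubiquitinase that ends signalling from TNF and Toll-like receptors. It read 3.69, 3.71 and 3.56 in the saline mice and 3.82, 3.81 and 3.95 in the antithrombin mice. The groups did not overlap, and the log2 difference was 0.21 (SE 0.11, 95% interval -0.05 to 0.46, limma adjusted p = 0.295). Tnip1 encodes the adaptor that recruits the Tnfaip3 protein to ubiquitin chains. It was 5.38, 5.46 and 5.05 in the saline mice and 5.49, 5.49 and 5.69 in the antithrombin mice. Saline mouse 3 stood apart below, and saline mouse 2 lay 0.02 under the lowest antithrombin mouse. The Tnip1 difference of 0.26 (SE 0.14, limma adjusted p = 0.328) was 0.13 without saline mouse 3, its groups overlapped with median scaling, and a second, dimmer probe gave 0.17.

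Birc3 encodes a ubiquitin ligase that joins the TNF receptor complex and also keeps the kinase NIK low. Its values were 0.61, 0.63 and 0.63 in the saline mice and 0.54, 0.47 and 0.10 in the antithrombin mice. The saline mice were close together (SD 0.01), and antithrombin mouse 3 lay well below the other antithrombin mice. The log2 difference was -0.26 (SE 0.14, limma adjusted p = 0.323), and -0.12 without that mouse. Zc3h12a encodes Regnase, an RNase that degrades cytokine messages and that of Nfkbiz. It was 0.37, 0.52 and 0.58 in the saline mice and 0.77, 0.60 and 0.52 in the antithrombin mice. These groups overlapped, the only such case among the 10 genes with the 75th percentile scaling, and the log2 difference was 0.14 (SE 0.12, limma adjusted p = 0.495), or 0.07 without antithrombin mouse 1.

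**Figure D2:**
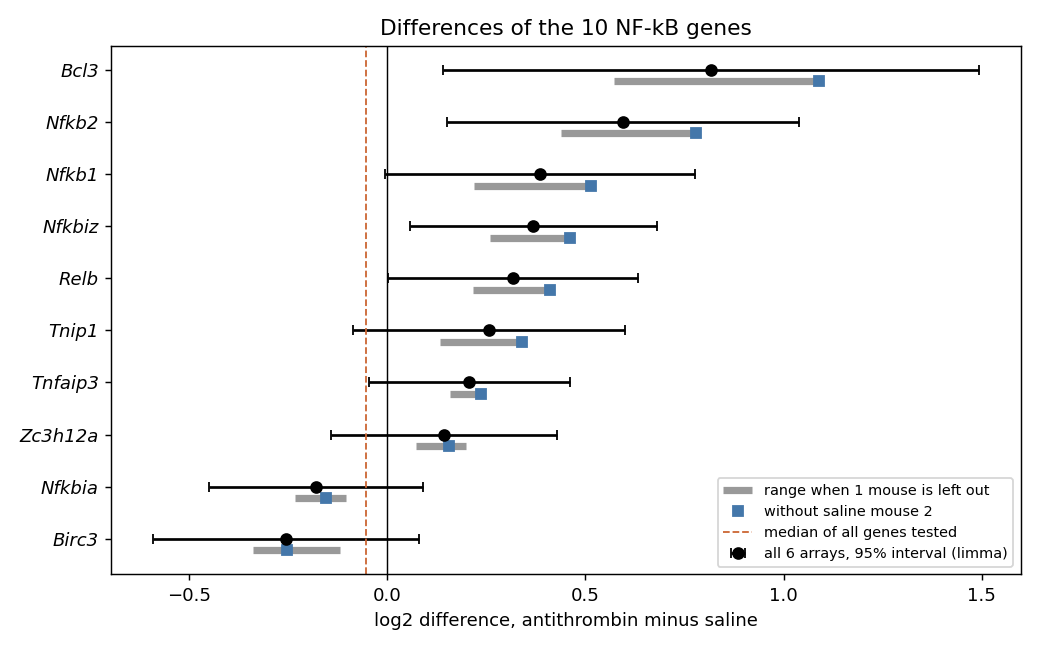
Log2 difference, antithrombin minus saline, of each gene (horizontal axis) with its 95% interval from the fit on all 6 arrays (black), the range over fits that leave out 1 mouse (grey) and the value without saline mouse 2 (blue square); the dashed line is the median of all genes tested, -0.05. The intervals of Bcl3, Nfkb2, Nfkbiz and Relb lie above 0, and no grey range crosses 0. For the 9 genes whose groups do not overlap the grey range could not cross 0, so only Zc3h12a could have done so.

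The 10 genes did not share one order of mice. Saline mouse 3 was the lowest saline mouse for 6 genes and saline mouse 1 for the other 4, while saline mouse 2 was the highest for 8. Antithrombin mouse 3 was the highest antithrombin mouse for 5 genes, Nfkb2, Nfkbiz, Bcl3, Tnfaip3 and Tnip1, and the lowest for 4, Nfkb1, Nfkbia, Birc3 and Zc3h12a. For 7 of the 10 the saline SD exceeded the antithrombin SD. Centred on its own mean over the 6 arrays, Relb was nearest to Nfkbiz among the members, with a root mean square difference of 0.05 log2, and Nfkbia was nearest to Birc3, at 0.08.

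**Figure D3:**
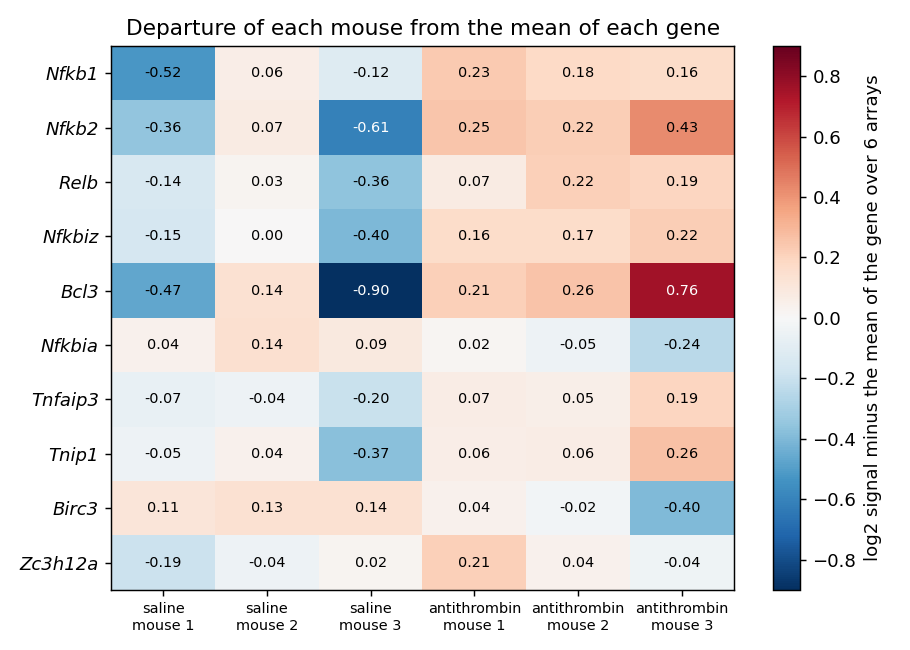
Log2 signal of each gene (rows) in each mouse (columns) minus the mean of that gene over the 6 arrays, with the value printed in each cell. Bcl3 spans the widest range, from -0.90 in saline mouse 3 to 0.76 in antithrombin mouse 3, and Nfkbia and Birc3 have their lowest values in that same antithrombin mouse.

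Outside the members, the named genes with the closest profile over the 6 arrays were Pprc1 for Bcl3 (root mean square difference 0.02 log2), Uchl4 for Nfkb2 (0.02), Eif4g2 for Nfkbiz (0.02) and Fbxw8 for Nfkbia (0.01). Each is the closest of 17497 genes searched, over only 6 arrays. The largest distance to a closest gene was 0.04, for Nfkb1 to Ccdc74a and for Zc3h12a to S100a11.

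With limma on the 5 arrays left without saline mouse 2, Nfkb2 (log2 difference 0.78, limma adjusted p = 0.0333) and Bcl3 (1.09, limma adjusted p = 0.0425) passed the adjusted threshold, and the other 8 did not. In the same fit 4.65% of all genes passed as higher and 5.89% as lower. Saline mouse 2 was nearer to the antithrombin mean than to the mean of the other saline mice for 6 members, Nfkb1, Nfkb2, Relb, Nfkbiz, Bcl3 and Tnip1, and leaving it out widens their difference by construction. Without saline mouse 3 the Bcl3 difference was 0.57 and that of Nfkb2 0.44, with 1 member, Nfkb2, higher at an unadjusted p under 0.05 (limma), against 5.80% of all genes tested. Without saline mouse 1 the only such member was again Nfkb2, against 5.86% of all genes. Without antithrombin mouse 3 there was none, against 5.62% of all genes.

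All arrays lay on 1 slide, with mice 1 and 2 of both groups in its row 1 and mouse 3 of both groups in its row 2. Within row 1, over 2 mice a group, the log2 difference was 0.40 for Bcl3, 0.38 for Nfkb2, 0.24 for Nfkbiz and 0.20 for Relb. Between the 2 mice of row 2 it was 1.66 for Bcl3, 1.03 for Nfkb2, 0.62 for Nfkbiz and 0.55 for Relb. The direction was the same in both rows for 9 of the 10 members, and Zc3h12a stood at 0.24 in row 1 and -0.06 in row 2. With the row as a block, Bcl3, Nfkb2 and Nfkbiz had an unadjusted p under 0.05 (limma) and Relb did not, as was also so for Relb with median scaling and with no filter on dim probes.

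The rest of the pathway was read from lists of genes chosen by role. Rela, which encodes the transactivating subunit, read 5.30, 5.26 and 5.29 in the saline mice and 5.19, 5.15 and 5.26 in the antithrombin mice. All antithrombin values were lower than all saline values, with a difference of -0.09 (SE 0.10, limma adjusted p = 0.599). A second Rela probe gave 0.30, the opposite direction, with an unadjusted p of 0.0458 against 0.388 for the probe used (limma). Rel, the gene of the lymphoid and myeloid subunit, differed by 0.11 (SE 0.17), and by -0.06 with normexp background correction or without saline mouse 1.

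Of 4 further IkB genes, Nfkbid, another nuclear IkB, was 0.99, 1.45 and 0.59 in the saline mice and 1.57, 1.53 and 1.75 in the antithrombin mice. Its groups did not overlap. The mean was 0.61 higher after antithrombin (SE 0.22, limma adjusted p = 0.193), and a second Nfkbid probe gave 0.79. Without saline mouse 3 the Nfkbid difference was 0.40. Nfkbil1, a distant relative, was lower at -0.28 (SE 0.11), without overlap, while Nfkbie stood at 0.22, or 0.09 without saline mouse 3, and Nfkbib at -0.01, both with overlap.

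The kinase list of 8 genes had a median log2 difference of -0.04, and none of its groups was apart. Ikbke, an inducible noncanonical IkB kinase, was 0.62 higher (SE 0.25, limma adjusted p = 0.223). It was the 1 kinase gene at an unadjusted p under 0.05 on the probes used. Saline mouse 2, at 0.68, lay inside the antithrombin range of 0.54 to 0.89, and a second Ikbke probe gave 0.43 (limma, unadjusted p = 0.106). The NIK gene Map3k14 stood at -0.05 with overlap, and a second probe gave -0.35 (limma, unadjusted p = 0.0236). Ikbkg, the scaffold of the kinase complex, stood at -0.27 on the probe used. Its 3 other probes ran from -0.59 to 0.80, the last with an unadjusted p of 0.0181 (limma). Tbk1 and Ikbkb stood at -0.11 and -0.07, and a second Ikbkb probe gave 0.13.

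The 16 adaptors and ubiquitin ligases had a median of -0.08. On the probes used 1 of them, lower after antithrombin, had an unadjusted p under 0.05 (limma, 0 past the adjusted threshold). That 1 was Sharpin, a subunit of the linear ubiquitin ligase, at -0.29 (SE 0.12), with -0.08 from its second probe. Traf1, itself an NF-kB target, stood at 0.55 (SE 0.25) without overlap, and at 0.28 when saline mouse 3 was left out. Malt1 stood at 0.27 (SE 0.13) without overlap, and at 0.17 without antithrombin mouse 3, and a second Malt1 probe gave -0.06. Tab1 at -0.25 (SE 0.11) and Traf6 at -0.17 (SE 0.11) were lower in every antithrombin mouse than in any saline mouse. Without saline mouse 1 the Traf6 difference was -0.11, and a second Traf6 probe gave -0.64 (limma, unadjusted p = 0.0260). Tab2 stood at -0.14 with overlap. Its other probes gave -0.23 and -0.40, the last with an unadjusted p of 0.0124 (limma).

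Among 19 tested genes of 20 other negative regulators the median was -0.03, and 0.01 with quantile normalization. Tollip, an inhibitor of Toll-like receptor signalling, was lower at -0.31 (SE 0.12) without overlap. On the probes used it was the only 1 of these at an unadjusted p under 0.05 (limma). At that threshold 1 other probe each of Cyld (-0.50) and Itch (-0.37) was lower, and of Irak3 (0.65) and Zc3h12d (0.65) higher. A further probe gave -0.27 for Itch and 0.07 for Irak3. Zc3h12d, a relative of Zc3h12a, stood at 0.68 (SE 0.29) with overlap, and at 0.42 without saline mouse 3. The deubiquitinase gene Cyld stood at -0.39 (SE 0.18), or -0.25 without saline mouse 3, and its other probes gave -0.50 and 0.07. The ubiquitin ligase gene Itch stood at -0.32 (SE 0.15) with overlap, and Rc3h2 at -0.17 and Tnip2 at -0.10 were lower without overlap.

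Ligands and receptors, 14 of 16 tested, had a median of 0.14 and, without saline mouse 3, of 0.02. Ltbr, the lymphotoxin receptor of the noncanonical arm, was -0.30 (SE 0.11) without overlap, and its ligand gene Ltb was 0.65 (SE 0.29) with overlap, or 0.43 without saline mouse 3. The endotoxin receptor gene Tlr4 was 0.20 higher (SE 0.11), without overlap, and a second Tlr4 probe gave -0.17. The adaptor gene Myd88 stood at 0.20 (SE 0.14) with overlap, or 0.09 when saline mouse 3 was left out. The kinase, adaptor, other regulator, subunit, IkB and receptor lists together held 63 tested genes, with a median of 0.00. The groups were apart for 13 of these genes, 4 above and 9 below. Over all genes tested 28.8% were apart, 10.7% above and 18.1% below. At an unadjusted p under 0.05 (limma), on the probes used, 2 of the 63 stood above and 4 below, against 8.73% and 12.9% of all genes tested, with 0 past the adjusted threshold.

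Inflammatory target genes of NF-kB outside the feedback circuit were read for comparison, on other probes. Of 20 tested, 16 had a positive log2 difference, against 43.0% of all genes tested, and the median was 0.69. At an unadjusted p under 0.05 (limma) 10 were above and 1 below, against 8.73% and 12.9% of all genes, with 0 past the adjusted threshold. Without saline mouse 2, 9 were higher and 1 was lower past the adjusted threshold (limma), against 4.65% and 5.89% of all genes. Ccl2 stood at 1.20 (SE 0.16), the endothelial selectin gene Sele at 1.30 (SE 0.24), the superoxide dismutase gene Sod2 at 1.19 (SE 0.28) and Tnf at 1.02 (SE 0.27). Ptgs2 and Cxcl2, at 0.71 and 0.67, were likewise apart between groups. Of the 4 targets with a negative difference, Ccl5, named after its value was seen, was the 1 at an unadjusted p under 0.05 (limma), at -0.63 (SE 0.21).

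**Figure D4:**
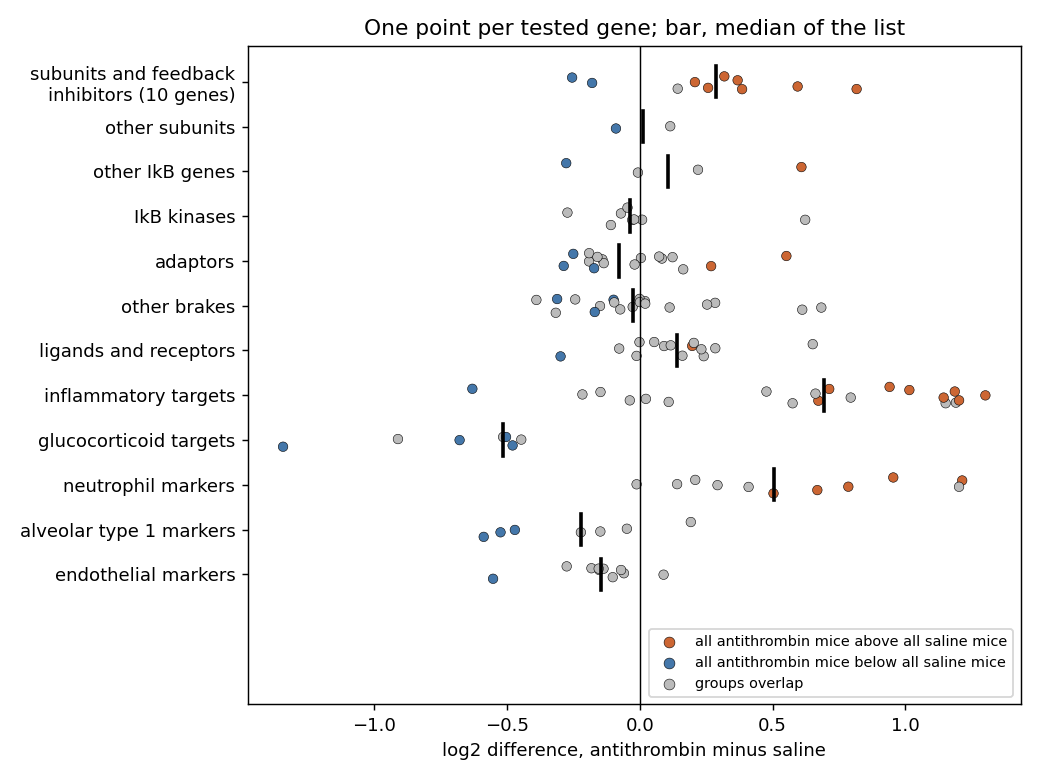
Log2 difference, antithrombin minus saline (horizontal axis), of each tested gene in 12 lists (rows); orange and blue points are genes whose groups do not overlap, grey points overlap, and the black bar is the median of the list. The members have a median of 0.29, the inflammatory targets of 0.69 and the neutrophil markers of 0.50, while the kinases and adaptors lie around 0.

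Cell type markers were read in the same RNA. The lung was represented by its alveolar epithelial and endothelial markers, which were well above background on all 6 arrays. Of 11 tested neutrophil markers 10 had a positive difference, against 43.0% of all genes tested, or 11 with normexp correction, quantile normalization or median scaling. At an unadjusted p under 0.05 (limma) 5 were higher, against 8.73% of all genes tested, with 0 past the adjusted threshold. Their summed signal ran from 930 to 1154 in saline mice and from 1088 to 1274 in antithrombin mice, in units of the 75th percentile of the array. The summed alveolar type 1 signal was 276 to 306 after saline and 226 to 261 after antithrombin, with 6 of 7 markers lower, or 5 of 7 with quantile normalization. Endothelial markers were lower for 9 of 10, with sums of 282 to 341 and 248 to 307 that overlapped. Monocyte and macrophage markers were higher for 6 of 10, with a median of 0.10, while their summed signal was 469 to 520 after saline and 448 to 469 after antithrombin. That sum is weighted most by Ly6c2, the brightest probe of the list on every array, which stood at -0.18 (SE 0.12). Airway epithelial markers were higher for 5 of 6, with a median of 0.27 and sums of 786 to 919 and 888 to 938 that overlapped. Of 7 fibroblast and smooth muscle markers 4 were higher, 3 of them without overlap, Col1a1 at 0.27 (SE 0.12), Acta2 at 0.52 (SE 0.16) and Myh11 at 0.71 (SE 0.14). Over all genes tested, 10.7% were apart and higher. The other 3 markers were lower with overlap, Pdgfra at -0.48 (SE 0.27), Pdgfrb at -0.29 (SE 0.18) and Dcn at -0.21 (SE 0.29). The sums of all 7 were 131 to 193 after saline and 138 to 173 after antithrombin, and they overlapped. Of 8 alveolar type 2 markers 5 were lower, with sums of 1428 to 1519 after saline and 1301 to 1479 after antithrombin that overlapped. T cell markers were lower for 4 of 7, with sums of 7.66 to 11.7 and 8.86 to 10.3 that overlapped. B cell markers were higher for 4 of 5, each with overlap. Their sums were 4.40 to 5.79 after saline and 4.02, 3.59 and 8.26 in antithrombin mice 1, 2 and 3. The part of these markers in the differences of the 10 genes was not tested.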

How the data were processed

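The authors deposited one scanner file per mouse, which per the file headers came from Agilent Feature Extraction 10.7.3.1 and hold spot intensity, background-subtracted and not scaled between arrays; the submitters' processing notes name version 9.1. Their deposited table of log2 values matched the scanner log2 signals within 0.01 for 99.9% of probes once an offset for each probe and one for each array, of unknown origin, were removed; its column medians ran from -0.04 to 0.08. Control and outlier spots were dropped, spots of a probe averaged, and log2 signals set relative to the 75th percentile of 56604 probes. RefSeq accessions of GRCm38.p6 named 32994 probes and left 23610 unnamed; the array design is on mm9, so no array coordinates are given. The brightest probe stood for a gene, and genes well above background on at least 3 arrays (69.8% to 72.1% of probes per array, none saturated) were tested with limma 3.58.1 in R 4.3.3, two-sided, Benjamini-Hochberg threshold 0.05. The design was checked on simulated data with independent noise for each gene and array. Shifts shared by many genes of a mouse were not simulated, so that check does not bear on the dependence on single mice. All arrays shared 1 slide and 1 scan day; their number limits precision.

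The members and lists were chosen with earlier results of these data known. Named genes are the 10 members, the up to 4 genes of smallest p and up to 6 without overlap per list, and the closest profile per member. Ccl5, Map3k14, Irak3, Tab2, Ly6c2, Col1a1, Acta2, Myh11, Pdgfra, Pdgfrb and Dcn, and the values within slide rows, were added after the values were seen. The planned mean spot signal is not in the files, so normexp used the median. Same-numbered mice were not paired in the labels. Figures were drawn with matplotlib 3.10.9.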

Additional observations from a re-analysis of the deposited data

How the results depend on the processing

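No member changed the direction of its difference under any of the 17 alternatives run, and their median was lowest, 0.20, when saline mouse 3 was left out and highest, 0.38, when saline mouse 2 was. Much of this was fixed in advance. Changed filters, a trended and robust variance, and the mouse number or array row as a block left the member differences unchanged. Leaving out 1 mouse could not reverse the 9 members whose groups do not overlap. The count of members past the adjusted threshold was 0 with all 6 arrays and stayed 0 except with array weights, where it was 1 (Nfkb2), and without saline mouse 2; leaving out 1 mouse gave 0 to 2. Members past the unadjusted threshold (limma, all higher) numbered 4, against 8.73% of all genes, and 0 to 5 when 1 mouse was left out, against 5.62% to 13.5%. They numbered 6 with normexp (8.24%), quantile normalization (10.2%) and a trended and robust variance (9.50%), and 3 with no filter (5.96%) and the row as a block (7.81%). The number of all genes past the adjusted threshold was 2. It was 1 with normexp background correction, quantile normalization, median scaling, no filter, a filter on all 6 arrays, a trended and robust variance or the array row as a block, 2565 with array weights, and from 0 to 3421 when 1 mouse was left out. The cause of these moves was not tested.

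With the replicate block, the mouse number, 0 genes and 0 members passed the adjusted threshold (limma). At an unadjusted p under 0.05 (limma) 2 members were higher, against 6.60% of all genes tested. In either direction 5076 genes had such a p. Deviations of same-numbered mice correlated at -0.01, -0.16 and -0.28 across genes, so the numbers are treated as names. The signal of the 10 genes was well above background throughout (3 mice a group).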
